A study of Homo sapiens with 23 samples.

Results

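The genes described are 35 regulators and markers of cell cycle progression and DNA replication, measured in the AML lines HL-60 and OCI-AML3 with and without CIGB-300. They were chosen by gene symbol and not by a limit on their values, but with earlier results of these data known. A gene was read from the probe set annotated with its symbol alone, the brightest where there were several. All 35 genes were found, each on 1 probe set, among 21448 probe sets tested. Of these 35 genes, 21 are grouped here as G1/S genes, for G1 phase and DNA synthesis, and 14 as G2/M genes, for the approach to mitosis and mitosis itself. The grouping follows a list, and a gene can also act or be present in other phases.

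HL-60 and OCI-AML3 are established human cell lines, AML being acute myeloid leukemia. CIGB-300 is a synthetic peptide that inhibits phosphorylation by protein kinase CK2. The 8 groups were HL-60 cells with 40 μM CIGB-300 for 30 min (3 arrays), HL-60 cells with 40 μM CIGB-300 for 3 h (3 arrays), OCI-AML3 cells with 40 μM CIGB-300 for 30 min (3 arrays), OCI-AML3 cells with 40 μM CIGB-300 for 3 h (3 arrays), and untreated cells of each line at each of these times (3 arrays, but 2 for OCI-AML3 at 30 min, where the authors removed replicate 1). Each sample was hybridized to a Clariom S HT array, and all values are log2 expression values normalized by robust multi-array averaging (RMA). The design calls the 3 samples of a group biological replicates, and since each cell type is 1 line, a difference between lines is a difference between these lines only.

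Progress through the cell cycle is driven by cyclin-dependent kinases (CDKs). D-type cyclins with CDK4 and CDK6 release E2F transcription factors from the retinoblastoma protein, and E2F then drives the genes that license and copy DNA, such as the MCM helicase, CDC6, CDT1, PCNA and the ribonucleotide reductase subunit RRM2. Later, FOXM1 and MYBL2 drive the genes of mitosis, among them cyclin B, the CDC25 phosphatases that activate CDK1, and the kinases PLK1, AURKA, AURKB and BUB1, while the DREAM complex represses the same genes in resting cells.

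A log2 fold change is CIGB-300 over time-matched untreated cells, followed by its standard error (SE) after the ± sign, from a limma fit with 1 mean for each group. A gene was a differentially expressed gene (DEG) where it changed at least 1.5-fold with an unadjusted p under 0.01, and the words “rose” and “fell” are kept for DEGs. A second rule was a Benjamini-Hochberg adjusted p under 0.05, taken over all probe sets, with no limit on the fold. For 3 untreated OCI-AML3 arrays the sample titles state 30 h and the time label 3 h, and the label was used. Array medians were 5.38 to 5.44 in HL-60 cells and 5.52 to 5.60 in OCI-AML3 cells, and the median SD of a gene within a group was 0.061 to 0.093 for the 35 genes and 0.124 to 0.177 over all probe sets. Of the myeloid genes, AZU1, PRTN3, SPI1 and CEBPA were between 8.96 and 12.61 in both lines. MPO was 12.99 to 13.14 in HL-60 cells and 5.29 to 7.53 in OCI-AML3 cells. Of 8 measured markers of other cell types, 4 were below the median of every array, while the B lineage gene CD79A was 10.53 to 10.85 in HL-60 cells and 4.80 to 6.27 in OCI-AML3 cells. In bulk RNA, fewer cells in a cycle phase and less RNA per cell cannot be told apart.

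Short sequences known from the promoters of cell cycle genes were looked for, because the G1/S and G2/M genes are known to be driven through different ones. The promoters are RefSeq windows on GRCh38.p14, 250 bases before to 50 bases after each start, and 27 of the 35 genes had at least 1 window (42 windows). An E2F site was any of TTTCCCGC, TTTGGCGC, TTTCGCGC or TTTGCCGC, a cell cycle genes homology region (CHR) was TTTGAA, and a CCAAT box was CCAAT, each read on both strands. In 1 of the 42 windows an E2F site overlapped another motif, and in 1 a CHR overlapped a CCAAT box. An E2F site was in 10 of 15 G1/S genes (66.7%, and 45.5% of their windows) and in 1 of 12 G2/M genes (8.33%, and 10.0% of windows), against 3.99% of all genes (3.31% of windows). A CHR was in 7 of 12 G2/M genes (58.3%, and 45.0% of windows) and in 0 of 15 G1/S genes, against 18.2% of all genes (15.2% of windows). A CCAAT box was in 12 of 12 G2/M genes (80.0% of windows) and in 9 of 15 G1/S genes (60.0%, and 63.6% of windows), against 39.7% of all genes (34.6% of windows). A match is a description of the letters, and binding was not measured.

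The 120 bases before the start are shown for 4 G2/M genes with the arrangement of CCAAT box and CHR or with 2 CCAAT boxes, and for 2 G1/S genes with an E2F site. They were picked by hand from genes whose values are described below. Where a gene had several windows, the one with the most motif matches in these bases is shown. CDC25C had 4 windows, of which 2 held a CHR. CDC25B, which is not shown, had 4 windows and a CHR in 0 of them. Capitals mark the motifs, and a motif on the opposite strand appears as ATTGG or GCGGGAAA. In CDC25C, PLK1 and CCNB2 the CHR began 30, 29 and 29 bases before the start. The windows are CDC25C at chr5:138331805-138331924 (minus strand), PLK1 at chr16:23678769-23678888 (plus), BUB1 at chr2:110678064-110678183 (minus), CCNB2 at chr15:59105026-59105145 (plus), CDT1 at chr16:88803669-88803788 (plus) and E2F2 at chr1:23531234-23531353 (minus).
CDC25C: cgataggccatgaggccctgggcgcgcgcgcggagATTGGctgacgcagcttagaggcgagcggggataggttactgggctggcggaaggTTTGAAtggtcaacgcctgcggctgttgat
PLK1: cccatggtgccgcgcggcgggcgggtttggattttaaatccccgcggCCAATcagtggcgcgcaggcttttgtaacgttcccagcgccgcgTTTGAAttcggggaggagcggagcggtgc
BUB1: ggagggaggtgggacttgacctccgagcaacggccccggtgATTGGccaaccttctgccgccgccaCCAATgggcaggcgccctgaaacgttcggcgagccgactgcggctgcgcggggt
CCNB2: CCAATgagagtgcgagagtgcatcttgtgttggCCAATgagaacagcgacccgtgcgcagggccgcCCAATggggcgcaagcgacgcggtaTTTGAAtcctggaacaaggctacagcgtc
CDT1: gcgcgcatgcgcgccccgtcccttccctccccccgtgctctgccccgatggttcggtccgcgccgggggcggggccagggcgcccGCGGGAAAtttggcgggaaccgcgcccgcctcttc
E2F2: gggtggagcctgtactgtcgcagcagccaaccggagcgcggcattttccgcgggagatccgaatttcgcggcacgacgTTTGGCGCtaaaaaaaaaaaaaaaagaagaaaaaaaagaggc

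With CIGB-300, few of the 35 cell cycle genes passed a rule, and all that did were in HL-60 cells at 3 h. A pass in 1 line alone is not a difference between the lines, which was tested apart. In HL-60 cells at 3 h, the cyclin D1 gene CCND1 rose and the CDC25C phosphatase gene fell. So 2 of 35 genes were DEGs (5.71%), a share near the 3.87% of all probe sets. By the second rule 7 of 35 passed (20.0%, against 5.57% of all probe sets), with CCND1 and the cyclin D3 gene CCND3 higher (2 of 35, against 2.62% of all probe sets) and CDT1, CDC25B, CDC25C, PLK1 and BUB1 lower (5 of 35, against 2.95% of all probe sets). The shares over all probe sets include dimmer and more variable ones, so they do not compare like with like. All 35 members, but only 12044 of the 21448 probe sets, had a group mean of at least 5.48, the median of all values. No member passed either rule at 30 min in HL-60 cells (0 of 35, with 0.877% and 0.345% of all probe sets passing) or at 30 min in OCI-AML3 cells (0 of 35, with 1.07% and 0.182%). The same held for OCI-AML3 cells at 3 h (0 of 35, with 1.6% and 0.974%). At an unadjusted p under 0.05 with no fold limit, limma gave 1, 3 and 6 members in these comparisons and 14 in HL-60 cells at 3 h.

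**Figure D1:**
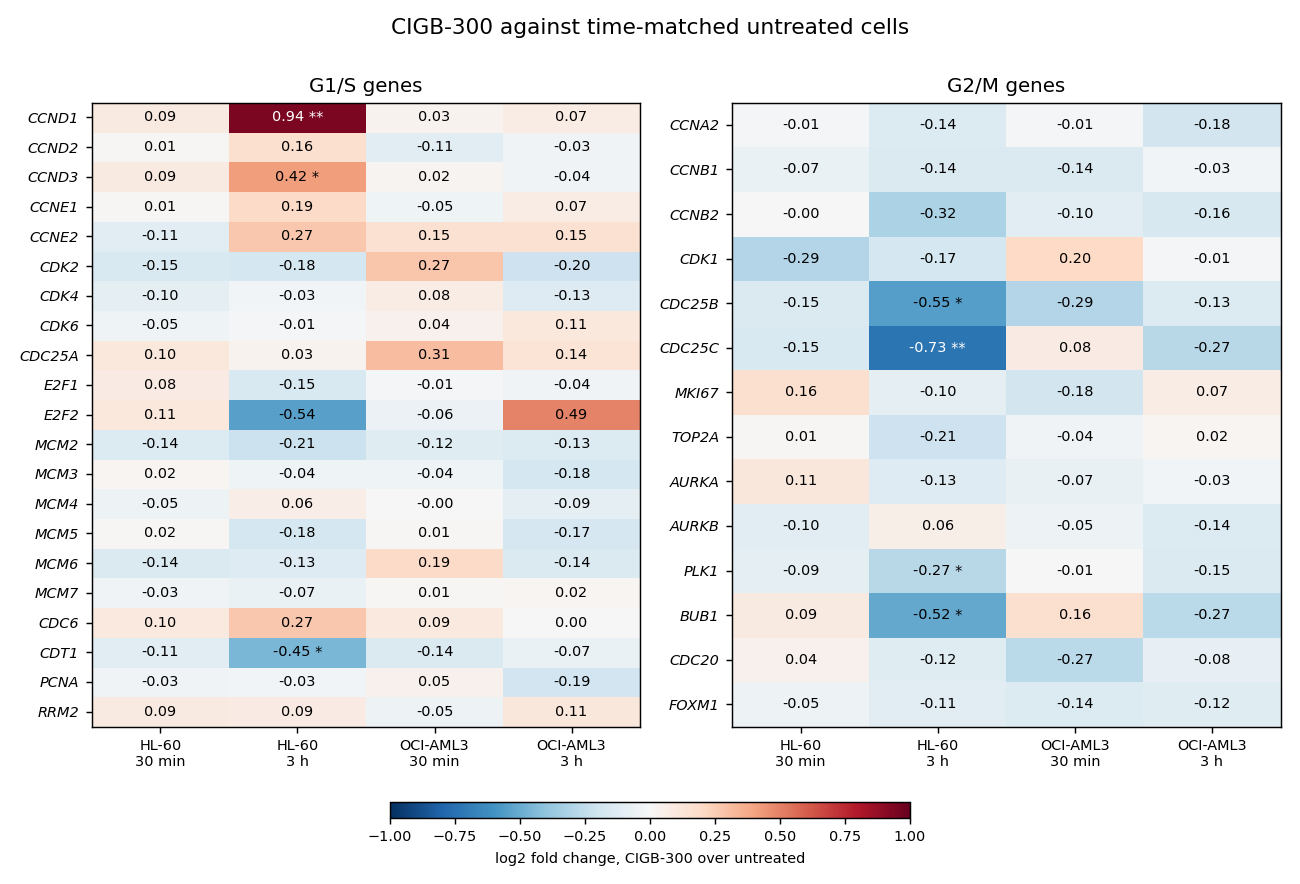
Log2 fold changes of the 35 genes, CIGB-300 over time-matched untreated cells, as a colour and a number for each gene (rows) and comparison (columns), with G1/S genes on the left and G2/M genes on the right. Marks show a DEG (**) and an adjusted p under 0.05 alone (*), and all marks are in HL-60 cells at 3 h, where CCND1 stood at 0.94 and CDC25C at -0.73.

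CCND1 encodes cyclin D1, the regulatory partner of CDK4 and CDK6. Its log2 values at 3 h were 8.22, 8.65 and 8.38 in HL-60 cells with CIGB-300, against 7.41, 7.39 and 7.62 in untreated HL-60 cells, so every treated array was above every untreated one. The log2 fold change was 0.94 ± 0.13 (n = 3 arrays per group, limma adjusted p = 8.53e-05). At 30 min the HL-60 arrays overlapped, with 7.83, 7.70 and 7.54 in treated and 7.48, 7.55 and 7.76 in untreated cells. Untreated OCI-AML3 cells had a higher level than untreated HL-60 cells, and the OCI-AML3 arrays overlapped at 3 h, with 8.02, 8.16 and 8.03 in treated and 7.98, 8.12 and 7.90 in untreated cells. Their arrays at 30 min held 8.18, 8.21 and 8.56 with CIGB-300 and 8.24 and 8.33 without it.

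CCND3 encodes cyclin D3, another D-type cyclin. In HL-60 cells at 3 h it stood at 10.50, 10.56 and 10.70 with CIGB-300 and at 10.19, 10.20 and 10.11 without it, with no overlap (log2 fold change 0.42 ± 0.07, limma adjusted p = 0.0016), a change below the 1.5-fold limit. At 3 h OCI-AML3 cells had 10.77, 10.70 and 10.72 with CIGB-300 and 10.72, 10.83 and 10.75 untreated, which overlap. The third D-type cyclin gene, CCND2, was 11.70, 11.57 and 11.68 in treated and 11.50, 11.40 and 11.56 in untreated HL-60 cells at 3 h, just apart. It passed neither rule (0.16 ± 0.25, limma adjusted p = 0.808). That SE rests on the spread in all groups. The SD of CCND2 was 0.07 and 0.08 in these HL-60 groups and from 0.05 to 0.57 in the OCI-AML3 groups.

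CDC25C encodes a phosphatase that activates CDK1 for entry into mitosis. In HL-60 cells at 3 h its values were 5.44, 5.59 and 5.65 with CIGB-300 and 5.84, 6.21 and 6.84 untreated, and the untreated arrays spread far more widely than the treated ones, although the groups did not overlap. The log2 fold change was -0.73 ± 0.20 (limma adjusted p = 0.0336). Without the highest untreated array, replicate 3, it was -0.46 and was no longer a DEG (limma adjusted p = 0.177), and over the 6 fits without 1 array each the adjusted p was above 0.05 in 5, all but that without untreated replicate 1. The treated values lie only just above the array medians. The OCI-AML3 cells at 3 h had CDC25C values of 7.21, 7.38 and 6.96 with CIGB-300 and 7.64, 7.43 and 7.30 untreated, and the groups overlapped (-0.27 ± 0.20, limma adjusted p = 0.664).

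CDC25B, a related phosphatase that acts earlier on the way to mitosis, was at 7.15, 7.30 and 7.13 in HL-60 cells with CIGB-300 at 3 h, against 7.84, 7.80 and 7.61 in untreated ones. The groups did not overlap, and the log2 fold change was -0.55 ± 0.12 (limma adjusted p = 0.00665), just short of 1.5-fold. Treated OCI-AML3 cells had 8.30, 8.37 and 8.26 at 3 h and untreated ones 8.50, 8.47 and 8.36, so that the highest treated array just reached the lowest untreated one (-0.13 ± 0.12, limma adjusted p = 0.737).

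BUB1 encodes a kinase of the spindle checkpoint. In HL-60 cells at 3 h it was 7.95, 8.28 and 8.30 with CIGB-300, against 8.54, 8.85 and 8.70 untreated, with no overlap (-0.52 ± 0.13, limma adjusted p = 0.022). The treated OCI-AML3 arrays at 3 h, at 8.66, 8.85 and 8.62, were also all below the untreated ones, at 8.89, 8.90 and 9.14, but the difference passed neither rule (-0.27 ± 0.13, limma adjusted p = 0.437). PLK1, a kinase needed for mitotic entry and spindle assembly, was 10.91, 10.97 and 11.07 in treated and 11.23, 11.24 and 11.30 in untreated HL-60 cells at 3 h (-0.27 ± 0.07, limma adjusted p = 0.0344), again without overlap. OCI-AML3 cells at 3 h had 11.64, 11.76 and 11.78 with CIGB-300 and 11.82, 11.85 and 11.95 untreated, where the arrays were likewise apart and neither rule was passed (-0.15 ± 0.07, limma adjusted p = 0.475).

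CDT1 encodes the factor that loads the MCM helicase onto origins. In HL-60 cells at 3 h it was 8.96, 9.16 and 8.81 with CIGB-300 and 9.63, 9.43 and 9.23 untreated, without overlap (-0.45 ± 0.13, limma adjusted p = 0.0402). Its values overlapped in OCI-AML3 cells at 3 h, with 9.31, 9.13 and 8.83 under CIGB-300 and 9.21, 9.23 and 9.04 untreated. Over the 6 fits that left out 1 HL-60 array of that comparison, the adjusted p was above 0.05 in 4 for CDT1 (without treated replicate 1 or 3 or untreated replicate 1 or 2; 0.025 to 0.179), in 5 for PLK1 (all but that without treated replicate 3; 0.0344 to 0.14) and in 3 for BUB1 (without treated replicate 1 or untreated replicate 2 or 3; 0.0219 to 0.12), while for CCND1, CCND3 and CDC25B it stayed under 0.05 in all 6 (up to 0.0359). By the second rule 3 to 6 members passed in these fits, and 3 (CCND1, CCND3 and CDC25B) with HL-60 cells fitted on their own. With dim probe sets left out 11 passed, E2F2, MCM2, MCM5 and CCNB2 being added.

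At 30 min the same genes showed no such separation in HL-60 cells, except PLK1. CCND3 was 10.33, 10.50 and 10.42 with CIGB-300 and 10.30, 10.32 and 10.35 untreated, CDC25C 5.97, 6.56 and 6.07 against 6.20, 6.40 and 6.44, and CDC25B 7.98, 7.84 and 7.66 against 8.19, 7.79 and 7.94. BUB1 was 8.34, 8.67 and 8.58 with CIGB-300 and 8.25, 8.63 and 8.44 untreated, CDT1 9.63, 9.63 and 9.69 against 9.71, 9.64 and 9.93, and E2F2 7.28, 7.46 and 6.91 against 6.93, 7.21 and 7.19. All of these overlapped. PLK1 was 11.13, 11.24 and 11.17 with CIGB-300, against 11.26, 11.30 and 11.24 untreated, just apart, and passed neither rule (-0.09). In OCI-AML3 cells at 30 min, CDC25B was 8.09, 8.47 and 8.28 with CIGB-300, against 8.51 and 8.63 untreated, CDT1 9.08, 9.15 and 9.12, against 9.29 and 9.23, and BUB1 9.00, 8.96 and 8.90, against 8.69 and 8.89. In these 3 genes the arrays were apart, lower with CIGB-300 for CDC25B and CDT1 and higher for BUB1, and none passed a rule by limma. The arrays of CCND3, CDC25C, PLK1 and E2F2 overlapped there.

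**Figure D2:**
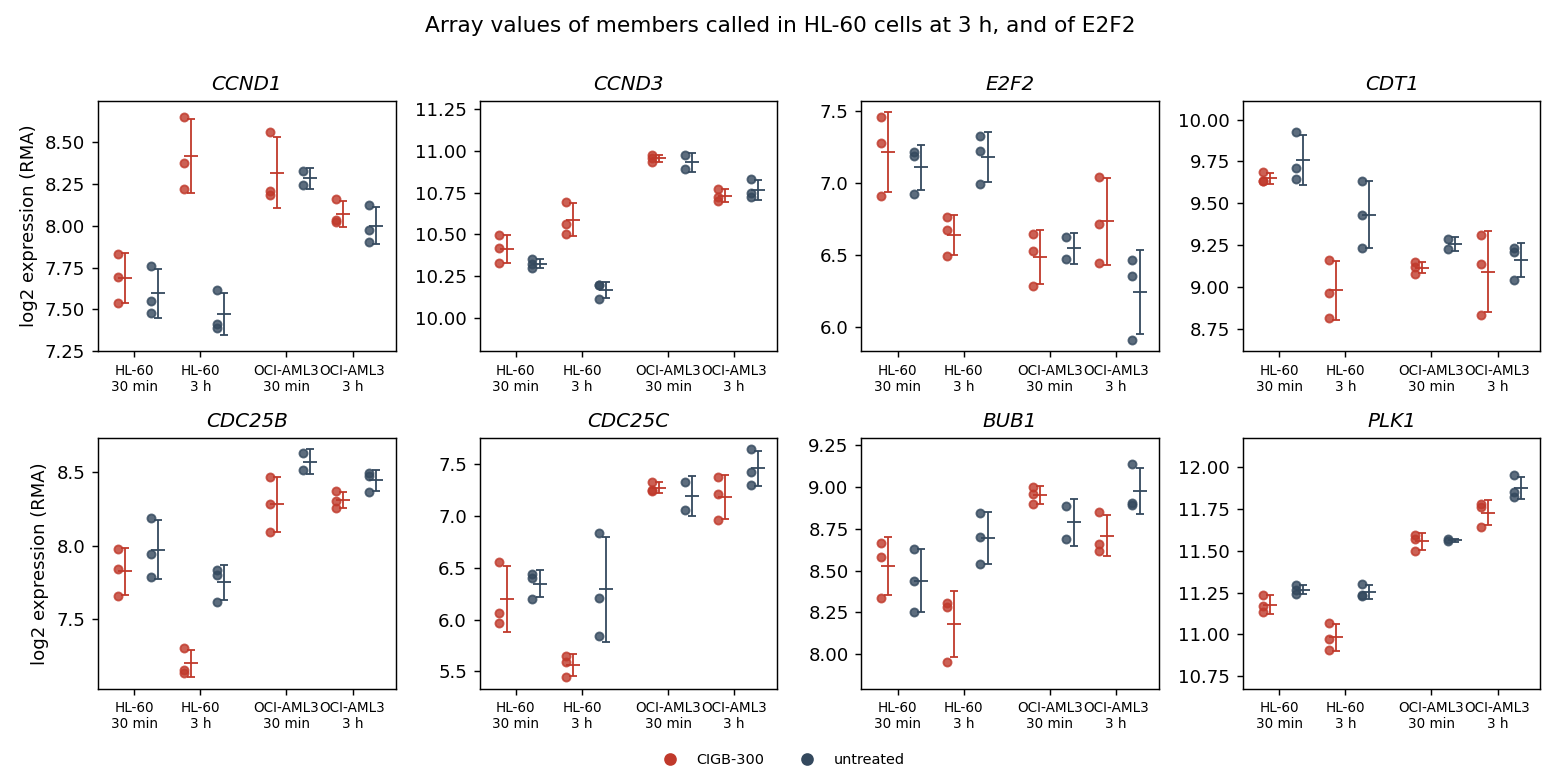
Log2 expression values by array for the 7 genes that passed a rule in HL-60 cells at 3 h and for E2F2, in groups of cell line and time (x axis), with CIGB-300 in red left of untreated in dark blue; bars show mean ± SD, and each panel has its own y range. The red and blue points at HL-60 3 h are apart in all 8 panels, while at OCI-AML3 3 h they overlap in CCND1, CCND3, CDT1, E2F2, CDC25B and CDC25C.

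E2F2 encodes an activating E2F transcription factor, and its values ran in opposite directions in the lines at 3 h. HL-60 cells had 6.67, 6.76 and 6.49 with CIGB-300 and 7.33, 6.99 and 7.23 untreated (-0.54 ± 0.18, limma adjusted p = 0.087), so the treated arrays lay below all untreated ones. OCI-AML3 cells had 7.04, 6.44 and 6.71 with CIGB-300 and 6.46, 5.91 and 6.35 untreated, which overlapped (0.49 ± 0.18, limma adjusted p = 0.267). Neither effect passed a rule by itself, and the difference of the effects, HL-60 minus OCI-AML3, did (-1.03 ± 0.25, limma adjusted p = 0.0477; above 0.05 in 9 of the 12 fits without 1 of the arrays used, 0.0251 to 0.126). In HL-60 cells E2F2 was a DEG without replicate 2 of the treated arrays (-0.60) or of the untreated ones (-0.63), and in OCI-AML3 cells without treated replicate 2 (0.64) or untreated replicate 1 (0.60). E2F1, a related activator, gave -0.15 in HL-60 and -0.04 in OCI-AML3 cells at 3 h.

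The differences between the lines were tested as such. At 3 h, CCND1 and E2F2 were DEGs for the difference of the effects (2 of 35, against 2.98% of all probe sets), and CCND3 joined them by the second rule (3 of 35, against 1.24% of all probe sets). With quantiles normalized within each line, only CCND1 passed the second rule (1 of 35), with adjusted p of 0.0547 for CCND3 and 0.0537 for E2F2, and E2F2 was also above 0.05 with array medians centred (0.0604). Without 1 of the arrays used, 0 to 2 passed it. The effect on CCND1 was larger in HL-60 than in OCI-AML3 cells by 0.87 ± 0.18 (limma adjusted p = 0.0169; 0.0551 without untreated OCI-AML3 replicate 2), and that on CCND3 by 0.45 ± 0.11 (limma adjusted p = 0.039). The adjusted p of CCND3 was above 0.05 in 11 of the 12 fits that left out 1 of the arrays used (0.0372 to 0.107), the exception being that without treated HL-60 replicate 1. At 30 min no member passed either rule by limma for the difference between the lines (0 of 35; 1.39% and 0.0746% of all probe sets passed; 4 members at an unadjusted p under 0.05). For CDT1, CDC25B, CDC25C, PLK1 and BUB1 the difference between lines at 3 h passed neither rule, with values of -0.46 for CDC25C, -0.42 for CDC25B and -0.13 for PLK1.

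Between the times, the effect of CIGB-300 in HL-60 cells was larger at 3 h than at 30 min for CCND1 by 0.85 ± 0.18 (limma adjusted p = 0.0186). The adjusted p was above 0.05 without replicate 3 of either 30 min group or without untreated replicate 2 of 3 h (up to 0.061), and was 0.0837 with HL-60 cells fitted on their own. For BUB1 the difference was -0.60 ± 0.18, which met the DEG threshold but not the adjusted one (limma adjusted p = 0.133), and it no longer met the DEG threshold without treated replicate 2 or 3 or untreated replicate 1 of 30 min, or treated replicate 1 or untreated replicate 2 of 3 h (-0.49 to -0.58). These were 2 of 35 genes by the DEG threshold (3.24% of all probe sets) and 1 of 35 by the second rule (1.49%). In OCI-AML3 cells 0 of 35 passed either rule by limma for the difference between the times (2.18% and 0.0699% of all probe sets passed; 3 members at an unadjusted p under 0.05).

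The remaining 27 members, apart from E2F2 and the 7 named above, stayed between -0.32 (CCNB2) and 0.27 (CDC6) in HL-60 cells at 3 h. The licensing and helicase genes MCM2 to MCM7 ranged from -0.21 (MCM2) to 0.06 (MCM4) there and from -0.18 (MCM3) to 0.02 (MCM7) in OCI-AML3 cells at 3 h. The cyclin E genes CCNE1 and CCNE2, partners of CDK2, were 0.19 and 0.27 in HL-60 cells at 3 h, and the kinase genes CDK2, CDK4 and CDK6 were -0.18, -0.03 and -0.01. RRM2 was 0.09, PCNA -0.03 and CDC25A 0.03. CCNB2, a cyclin B gene, was the nearest to passing, with 8.48, 8.69 and 8.60 in treated and 8.70, 8.95 and 9.07 in untreated HL-60 cells at 3 h (-0.32 ± 0.10, limma adjusted p = 0.0649).

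As a group, 13 of 14 G2/M genes had a negative log2 fold change in HL-60 cells at 3 h (92.9%, against 55% of all probe sets), with AURKB at 0.06 the exception. The median was -0.16, against -0.03 over the 21 G1/S genes and -0.03 over all probe sets. In OCI-AML3 cells at 3 h 12 of 14 were negative (85.7%, against 49.9% of all probe sets). Their median was -0.13, against -0.04 over the G1/S genes and 0.00 over all probe sets. The same signs at 30 min were fewer, with 9 of 14 negative in HL-60 cells (median -0.03) and 11 of 14 in OCI-AML3 cells (median -0.06). Of all probe sets, 53.2% and 50.9% were negative there. For the effect at 3 h minus that at 30 min, 12 of 14 were negative in HL-60 cells (median -0.20, with 52.3% of all probe sets negative). In OCI-AML3 cells 7 of 14 were (median -0.02, with 49.4% of all probe sets negative). The median of the 14 genes in each array, with each gene set relative to its mean over all arrays of that line, was -0.11, -0.18 and -0.14 in HL-60 cells with CIGB-300 at 3 h, against -0.00, 0.07 and 0.10 untreated. The OCI-AML3 arrays at 3 h had medians of -0.05, 0.04 and -0.01 with CIGB-300, against 0.13, 0.11 and 0.16 untreated. The arrays were apart in both lines. The medians of the 21 G1/S genes were also apart at 3 h, over a narrower range, at -0.00, -0.02 and -0.02 in HL-60 cells with CIGB-300, against 0.03, 0.02 and 0.03 untreated, and at -0.06, 0.00 and -0.04 in OCI-AML3 cells with CIGB-300, against 0.02, 0.01 and 0.03 untreated. At 30 min the G1/S medians overlapped in HL-60 cells and were all higher with CIGB-300 in OCI-AML3 cells. The G2/M medians were apart at 30 min too, at 0.02, 0.05 and 0.02 in HL-60 cells with CIGB-300, against 0.08, 0.10 and 0.07 untreated. In OCI-AML3 cells they were -0.13, -0.08 and -0.10 with CIGB-300, against -0.05 and -0.02 untreated. These medians carry no test, because the members share their arrays.

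**Figure D3:**
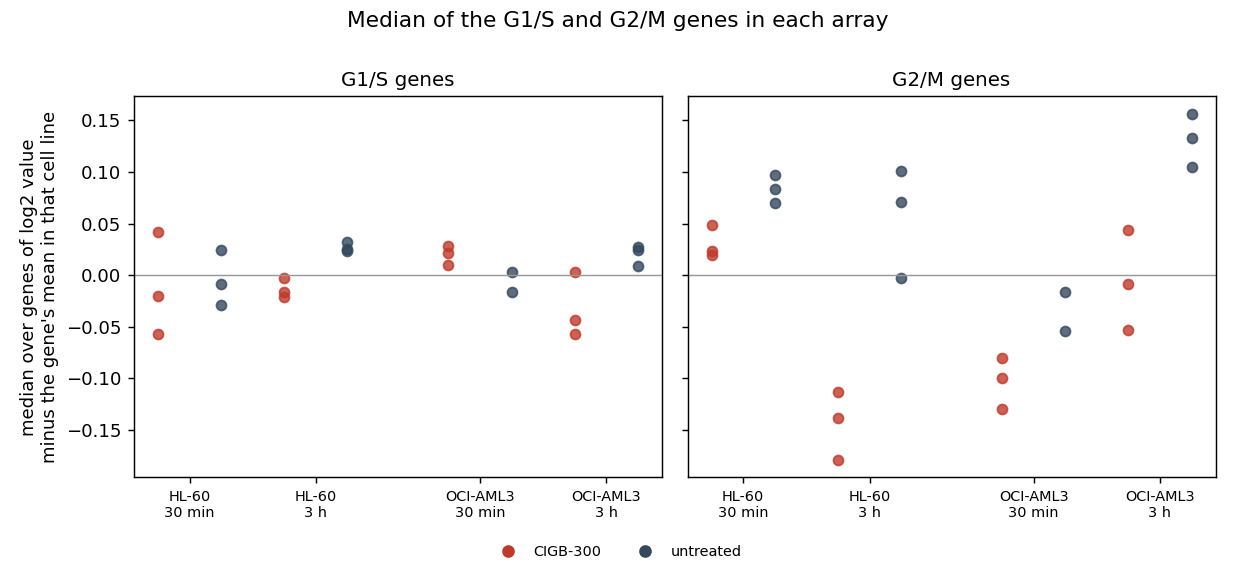
Median log2 value over the G1/S genes (left) and the G2/M genes (right) in each array, each gene minus its mean in that cell line (y axis, log2 units), for each line and time (x axis), with CIGB-300 in red left of untreated in dark blue; 1 point is 1 array. In the right panel the red points lie below the blue ones in all 4 comparisons, between -0.18 and -0.11 in HL-60 cells at 3 h. The left panel shows the same order at 3 h in both lines, while at 30 min the red points overlap the blue ones for HL-60 cells and lie above them for OCI-AML3 cells, all between -0.06 and 0.04.

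Other genes of the same pathways were read from lists of cell cycle genes that do not hold the members. In HL-60 cells at 3 h, 35 of 47 other G1/S genes were negative (74.5%, against 55% of all probe sets, median -0.10). By the second rule 5 passed, all lower (10.6%, against 2.95% of all probe sets). Of these 47, 2 fell (4.26%), where 3.87% of all probe sets were DEGs in either direction and 383 of 21448 fell. They were PRIM1, a primase subunit (-0.72 ± 0.12), and BRIP1, a DNA repair helicase (-0.59 ± 0.15, limma adjusted p = 0.000784 and 0.0263). Of 49 other G2/M genes, 39 were negative (79.6%, against 55% of all probe sets, median -0.18), and 6 passed the second rule, all lower (12.2%, against 2.95%). Of these 49, 1 fell (2.04%, against 383 of 21448 probe sets), CKAP2, a spindle protein gene (-0.77 ± 0.12, limma adjusted p = 0.000305). In OCI-AML3 cells at 3 h, 37 of the 47 other G1/S genes were negative (78.7%, against 49.9% of all probe sets, median -0.08). By limma 0 passed either rule (1.6% and 0.974% of all probe sets did), with 8 at an unadjusted p under 0.05. Of the 49 other G2/M genes there, 43 were negative (87.8%, against 49.9% of all probe sets, median -0.12). The second rule was passed by 2 (4.08%, against 0.974% of all probe sets), KIF20A, a mitotic kinesin (-0.58 ± 0.13, limma adjusted p = 0.0285), and NCAPD2, a condensin subunit (-0.42 ± 0.09, limma adjusted p = 0.035). By limma 0 of the 49 were DEGs there (1.6% of all probe sets), and 7 had an unadjusted p under 0.05.

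Among 9 measured CDK inhibitor and pocket protein genes, CDKN1A, which encodes the CDK inhibitor p21, rose in both lines at 3 h, by 1.23 ± 0.25 in HL-60 cells (limma adjusted p = 0.00519) and by 0.78 ± 0.25 in OCI-AML3 cells (limma adjusted p = 0.211). CDKN2B, an inhibitor of CDK4 and CDK6, rose by 0.61 ± 0.18 in OCI-AML3 cells at 3 h (limma adjusted p = 0.164). Of 15 measured checkpoint genes, GADD45B, a stress-induced gene, rose by 1.23 ± 0.10 at 30 min in HL-60 cells and by 0.90 ± 0.10 at 3 h (limma adjusted p = 5.02e-07 and 9.81e-06), and in OCI-AML3 cells by 0.60 ± 0.10 at 3 h (limma adjusted p = 0.00459). PLK3, a stress-responsive relative of PLK1, rose in HL-60 cells by 0.59 ± 0.18 at 30 min and 0.89 ± 0.18 at 3 h (limma adjusted p = 0.395 and 0.00501), and CCNG2 fell there by 0.69 ± 0.21 at 3 h (limma adjusted p = 0.0604). PLK2 rose in OCI-AML3 cells at 30 min by 1.10 ± 0.34 (limma adjusted p = 0.428). Of 13 other E2F and DREAM factor genes, 0 were DEGs by limma in any of the 4 CIGB-300 comparisons (0.877% to 3.87% of all probe sets were). At 3 h, 3 had an unadjusted p under 0.05 in HL-60 and 1 in OCI-AML3 cells. By the second rule TFDP2, a partner of E2F, was lower in HL-60 cells at 3 h (-0.50 ± 0.12, limma adjusted p = 0.0131).

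The largest differences among the 35 genes were between the untreated lines. Relative to untreated OCI-AML3 cells, 10 genes were DEGs in untreated HL-60 cells (24.9% of all probe sets), 2 higher (11.8%) and 8 lower (13.1%). By the second rule 28 of 35 passed (46.4% of all probe sets), 7 higher (24.8%) and 21 lower (21.6%). Here too the shares over all probe sets include dimmer and more variable ones. The 14 G2/M genes were all lower in value (13 with array medians centred), with a median of -0.44, and 13 of them passed the second rule, among which AURKA had an adjusted p above 0.05 in 8 of the 11 fits without 1 array. The 21 G1/S genes had a median of -0.08, which turned to 0.05 with array medians centred, and all probe sets had 0.07. CCNB2 alone of the 14 did not pass (-0.02 ± 0.07, limma adjusted p = 0.835). The other genes that did not pass were CCNE1, CDK2, CDK6, E2F1, MCM5 and MCM6. With the median of each array set to the same value, the median of all probe sets moved to 0.20 and that of the G2/M genes to -0.31. Under that scaling 9 of the 14 G2/M genes passed the second rule, and 2 of the 35 genes were DEGs higher and 5 lower, without CCND1, CCND3 and CDC25B.

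CCND2, which encodes cyclin D2, was the widest difference. Its untreated values were 11.31 to 11.56 in the 6 HL-60 arrays (median 11.41), against 4.64, 4.57, 4.47, 4.38 and 5.42 in the 5 OCI-AML3 arrays. The OCI-AML3 values lie below the array medians and detection was not tested, so the difference of 6.74 ± 0.19 (limma adjusted p = 3.72e-16) is less certain in size than in direction. CCND1 and CCND3 were lower in HL-60 cells, CCND1 at 7.39 to 7.76 (median 7.51) against 8.24, 8.33, 7.98, 8.12 and 7.90, and CCND3 at 10.11 to 10.35 (median 10.25) against 10.97, 10.89, 10.72, 10.83 and 10.75, with differences of -0.61 ± 0.10 and -0.60 ± 0.06 (limma adjusted p = 2.44e-05 and 2.53e-08). CCND1 was short of 1.5-fold without untreated HL-60 replicate 1 of 30 min or OCI-AML3 replicate 2 of 3 h (-0.58 each), and CCND3 without OCI-AML3 replicate 2 of 30 min (-0.58). CCND2 was thus the D-type cyclin gene higher in HL-60 cells, and CCND1 and CCND3 those higher in OCI-AML3 cells.

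Of the E2F and replication genes, E2F2 was 6.93 to 7.33 in untreated HL-60 cells (median 7.20), against 6.47, 6.62, 6.46, 5.91 and 6.35 in untreated OCI-AML3 cells, apart in every array (0.75 ± 0.13, limma adjusted p = 8.13e-05). MCM3, a subunit of the replicative helicase, was 10.11 to 10.30 (median 10.25) in HL-60 cells, against 9.75, 9.74, 9.85, 9.89 and 9.79 in OCI-AML3 cells (0.43 ± 0.06, limma adjusted p = 1.04e-05). CDT1 was 9.23 to 9.93 (median 9.64) in HL-60 cells, against 9.29, 9.23, 9.21, 9.23 and 9.04 in OCI-AML3 cells, where the arrays overlapped (0.39 ± 0.09, limma adjusted p = 0.00202). CCNE2 of HL-60 cells was 7.51, 7.59 and 7.34 at 30 min and 7.99, 7.89 and 8.07 at 3 h, below the OCI-AML3 values of 8.35 and 8.41 at 30 min and 8.71, 8.88 and 8.48 at 3 h (-0.81 ± 0.08, limma adjusted p = 8.46e-08).

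The mitotic genes were lower in HL-60 cells by up to 1.24. CCNB1, the main cyclin of mitotic entry, was 7.76 to 8.21 (median 7.93) in HL-60 cells, against 9.00, 9.13, 9.27, 9.22 and 9.35 in OCI-AML3 cells (-1.24 ± 0.08, limma adjusted p = 6.22e-11). AURKB, the kinase of the chromosomal passenger complex, was 8.13 to 8.53 (median 8.35), against 9.48, 9.51, 9.70, 9.67 and 9.74 (-1.24 ± 0.07, limma adjusted p = 3.96e-11). FOXM1, the transcription factor that drives mitotic genes, was 9.41 to 9.54 (median 9.49), against 10.30, 10.36, 10.47, 10.43 and 10.35 (-0.90 ± 0.05, limma adjusted p = 5.1e-11). CDC25C was 5.84 to 6.84 (median 6.30), against 7.06, 7.33, 7.64, 7.43 and 7.30 (2.01-fold lower, limma adjusted p = 1.09e-05). No HL-60 array reached the lowest OCI-AML3 array in any of these 4 genes. Of 49 other G2/M genes, 21 were also DEGs lower in HL-60 cells (13.1% of all probe sets) and 1 higher, CKAP2 (11.8% of all probe sets), with a median of -0.51.

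**Figure D4:**
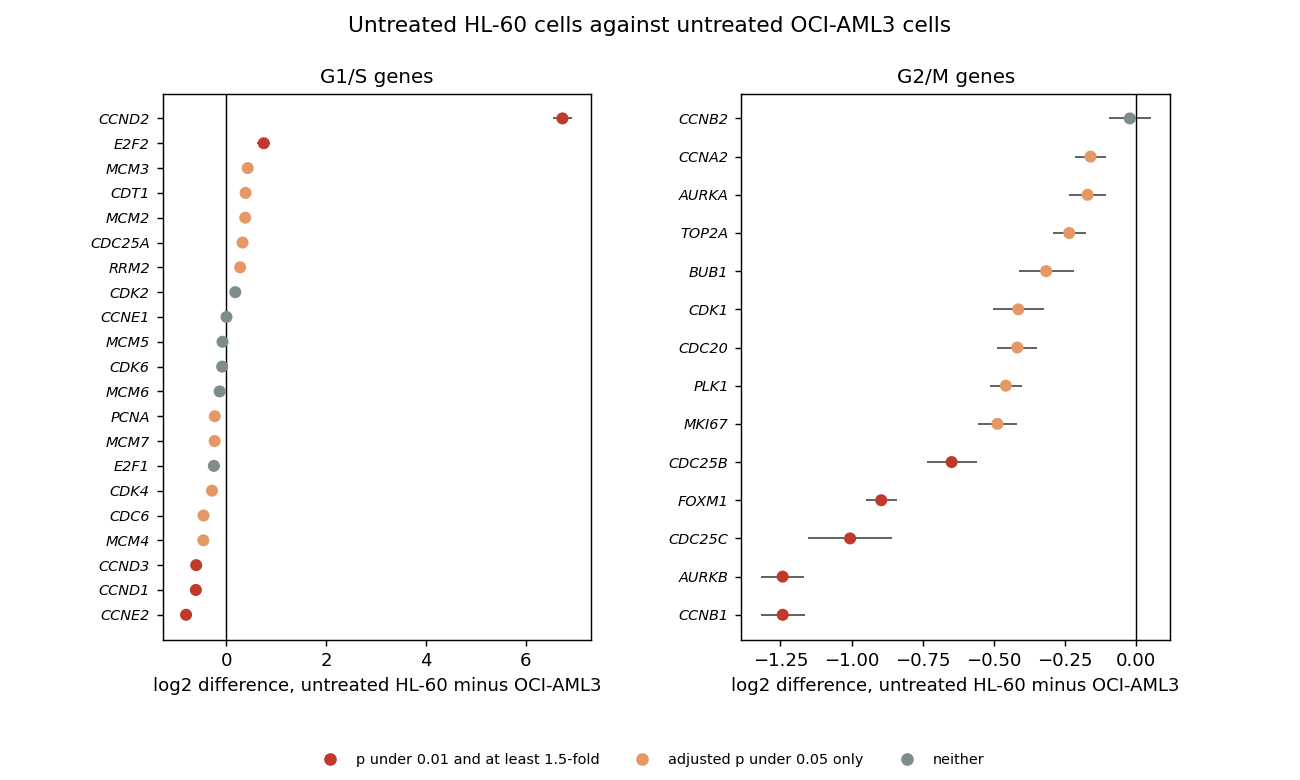
Log2 difference of untreated HL-60 minus untreated OCI-AML3 cells (x axis) for the G1/S genes (left) and G2/M genes (right), sorted, with SE as bars; colours show DEGs, an adjusted p under 0.05 alone, and neither, and the panels have different x ranges. All 14 G2/M points lie below 0 (13 with array medians centred), CCNB2 at -0.02 the nearest, while the G1/S points run from -0.81 (CCNE2) to 6.74 (CCND2).

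Untreated cells at 3 h were set against untreated cells at 30 min to see how far the time in culture alone moved these genes. In HL-60 cells 0 of 35 were DEGs by limma (1.5% of all probe sets, with 4 members at an unadjusted p under 0.05), and 2 of 35 passed the second rule (0.914%), CCNE2 with a cyclin E2 level of 7.99, 7.89 and 8.07 at 3 h, against 7.51, 7.59 and 7.34 at 30 min (0.50 ± 0.11, limma adjusted p = 0.0355), and AURKA with 9.38, 9.41 and 9.45 at 3 h, against 9.08, 8.89 and 9.05 at 30 min (0.41 ± 0.09, limma adjusted p = 0.0272). The arrays of both times were apart for each gene, yet the adjusted p was above 0.05 in each of the 6 fits without 1 array (0.0566 to 0.147 for CCNE2 and 0.0581 to 0.127 for AURKA). It was also above 0.05 for both genes with array medians centred (0.0566 and 0.0515) and with HL-60 cells fitted on their own (0.0946 and 0.0978), so that 0 of 35 passed under either setting. In OCI-AML3 cells 0 of 35 passed either rule by limma (2.01% and 0.779% of all probe sets; 5 members at an unadjusted p under 0.05), with CCNE2 at 0.31 and AURKA at 0.38, and 12 of 14 G2/M genes were higher in value at 3 h (median 0.17). Of the other lists, CDCA2, a mitotic chromatin gene, rose with time in both lines, by 0.61 ± 0.11 in HL-60 cells and by 0.63 ± 0.12 in OCI-AML3 cells (limma adjusted p = 0.00769 and 0.0174). It was not the largest change. Of the 13 other E2F and DREAM factor genes 1 was a DEG in each line (7.69%, against 1.5% and 2.01% of all probe sets). The highest values were 0.70 in HL-60 and 1.01 in OCI-AML3 cells. Of the 47 other G1/S genes 1 was a DEG in each line (2.13%), with highest values of 0.60 and 0.75. Of the 15 checkpoint genes 2 were DEGs in HL-60 cells (13.3%, against 1.5% of all probe sets) and 0 by limma in OCI-AML3 cells (2.01%).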

How the data were processed

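The 8 groups of the AML lines comprised 23 Clariom S HT arrays. The authors used RMA (convolution background correction and quantile normalization), summarised probe sets robustly and deposited log2 values, averaging technical replicates; the versions of RMA and limma are not given in the sources used here. Values were used as deposited. Quantile normalization sets the arrays to a common distribution, so a shift of most genes at once would be reduced. Of 27189 features, 5741 controls were left out. Names came from the platform annotation (17709 probe sets with 1 symbol).

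Group means of all 23 arrays were fitted with limma 3.58.1 (R 4.3.3) under default eBayes, with Benjamini-Hochberg adjustment over 21448 probe sets, and gave all contrasts. The threshold of an unadjusted p under 0.01 and a fold of at least 1.5 is the study's. Array values are printed for members that passed a rule with CIGB-300, up to 4 each way with the largest difference between untreated lines and up to 3 each way between untreated times. Of other lists, up to 4 DEGs of lowest p are named where CIGB-300 is set against untreated cells. Between untreated cells only CKAP2 and CDCA2 are named, and other DEGs of the lists are not. E2F2 in the CIGB-300 comparisons, CCND2, CCNB2 and genes that passed the second rule alone were named after their values had been seen. The members and lists were chosen with earlier results of these data known. Alternatives were other thresholds, each line fitted alone, a replicate block, trended robust eBayes, array weights, centred or within-line scaling, a filter on dim probe sets and leaving out each array; where this left 1 array in a group, it was assumed to vary like the others. Same-numbered replicates correlated at most at 0.081 after group means were removed, so the fit has no block. The code was tested on simulated data. Python 3.11.15 (pandas 2.3.3, matplotlib 3.10.9) searched RefSeq promoters (GRCh38.p14) and drew the figures. The number of arrays limits the precision, and detection above background was not tested. Promoters of CCND1, CCND2, CCNE2, CDK2, MCM4, MCM5, AURKA and FOXM1 were not analysed here.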

Additional observations from a re-analysis of the deposited data

Results flagged for a closer look

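At 3 h the effect of CIGB-300 differed between the lines, HL-60 minus OCI-AML3, by the second rule for 3 genes, each tested as the difference of both effects. These were CCND1 (0.87, limma adjusted p = 0.0169), CCND3 (0.45, limma adjusted p = 0.039) and E2F2 (-1.03, limma adjusted p = 0.0477). Without 1 of the arrays used, the adjusted p was above 0.05 in 11 of 12 fits for CCND3, in 9 for E2F2 and in 1 for CCND1. In HL-60 cells the effect at 3 h differed from that at 30 min for CCND1 (0.85, limma adjusted p = 0.0186, above 0.05 in 3 of 12 fits without 1 array). By the unadjusted threshold alone it differed for BUB1 (-0.60, limma adjusted p = 0.133). The cause was not tested for any of these.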

How the results depend on the processing

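In HL-60 cells at 3 h, 2 members were DEGs; a fold of at least 2 gave 0, an adjusted p under 0.05 with no fold limit gave 7, and leaving out 1 array gave 2 to 4, with 4 (CDC25B and E2F2 added) without treated replicate 2. In OCI-AML3 cells at 3 h the count was 0, and 0 to 1 with 1 array left out. For the difference between lines at 3 h, 2 members passed, 1 with a fold of at least 2, and 2 without any 1 array. For the difference between times in HL-60 cells, 2 passed, but 0 with a fold of at least 2; 1 (CCND1) with an adjusted p under 0.05, with or without the fold limit of 1.5; 1 with HL-60 cells fitted on their own, with array medians centred and with quantiles normalized within each line; and 1 to 3 with 1 array left out. Between untreated times in HL-60 cells the count was 0, and 2 by an adjusted p alone. Between untreated lines 10 passed, 4 with a fold of at least 2, 28 by an adjusted p alone, and 9 to 10 with 1 array left out. For the other alternatives, the counts of DEGs stayed within 1.5 times, and no value changed sign while passing a rule. The counts by an adjusted p alone moved further. For HL-60 cells at 3 h the 7 became 3 with the line fitted on its own, 11 with dim probe sets left out, and 3 to 6 with 1 array left out. For the difference between lines at 3 h the 3 became 1 with quantiles normalized within each line or with the replicate block, and 0 to 2 with 1 array left out (0 without untreated OCI-AML3 replicate 2). For the difference between times in HL-60 cells the 1 became 0 with the line fitted on its own, 3 with trended robust eBayes, 2 with dim probe sets left out, and 0 to 1 with 1 array left out. Between untreated times in HL-60 cells the 2 became 0 with the line fitted on its own, with array medians centred and in each fit without 1 array, and 1 with the block. In OCI-AML3 cells the 0 between untreated times became 2 with trended robust eBayes and with dim probe sets left out. With array medians centred, CDT1 and PLK1 in HL-60 cells at 3 h had adjusted p of 0.0583 and 0.0568. The cause was not tested.

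Replicate numbers were not taken to pair the arrays, because no correlation between same-numbered arrays was above 0.1 (0.081 at most) and the labels name nothing that a number shares. Of the 23 arrays, 13 correlated best with their own number, a hint of sharing from the data and not from the design. With the replicate block, the counts of DEGs among members stayed at 2 in HL-60 cells at 3 h and 10 between untreated lines, and by the adjusted p CCNB2 was gained in HL-60 cells at 3 h (0.0499) while CCND3 and E2F2 for the difference between lines (0.0583 and 0.0541) and CCNE2 between untreated times (0.0536) were lost. Each member has 1 probe set, so a mean over probe sets gives the same values.

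The precision is limited by 2 or 3 arrays per group. Values near or below the array median, such as CDC25C in HL-60 cells with CIGB-300 at 3 h and CCND2 in OCI-AML3 cells, are the least certain in fold. The comparisons of OCI-AML3 cells at 3 h rest on the time label of 3 untreated samples.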
